A study of Homo sapiens with 16 samples.

Results

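Newly made RNA from 9 genes stood above the level of untreated cells after 5 h of DRB, while the median gene lay far below it. DRB is an inhibitor of RNA polymerase II (Pol II) elongation. The genes are NIM1K, MATN2, IL12RB2, CCDC80, TNN, MOBP, CUBN, TMEM74 and RBM34. After 1 h of DRB, 5 of the 9 were above untreated in both libraries, and MATN2, IL12RB2, MOBP and RBM34 were below. The 9 genes are among the 9944 gene-body regions that the authors counted. They were chosen by name for lying above untreated after DRB on the yeast spike-in scale, so the DRB values that follow are a description and were not tested.

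The data are TT-chem-seq libraries from HAP1, a near-haploid human derivative of the leukaemia line KBM-7. The assay captures and sequences RNA made while 4-thiouridine (4-SU), a uridine analogue, was in the medium, here at 1 mM for the final 30 min of treatment. The 16 libraries fall into 8 groups of 2, all of them wild-type HAP1. Cells received BMH-21 (1 µM, against Pol I), DRB (100 µM) or ML-60218 (20 µM, against Pol III) for 1 h or 5 h and were labelled with 4-SU. The other groups were untreated cells labelled with 4-SU and cells given no 4-SU, whose libraries hold the unlabelled background. The titles call the replicates biological but name no separate cultures. P-values here therefore cover only the spread among the libraries at hand.

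DRB blocks CDK9, the kinase of P-TEFb, which releases Pol II from its pause near the promoter into productive elongation. Long gene bodies therefore lose nascent RNA behind the last polymerases that escaped before the block. The 9 genes belong to no single pathway. MATN2 (matrilin-2), TNN (tenascin-N) and CCDC80 encode secreted proteins of the extracellular matrix. IL12RB2 encodes a chain of the interleukin-12 receptor of T and NK cells, and CUBN encodes cubilin, an endocytic receptor of kidney and gut that takes up vitamin B12 bound to intrinsic factor. MOBP encodes a structural protein of myelin, NIM1K a kinase related to AMPK, TMEM74 a membrane protein linked to autophagy, and RBM34 a protein with RNA recognition motifs.

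Depth limits every value. Libraries held 14.1M to 93.9M tags, of which gene bodies took 171198 to 290828 after 1 h of DRB, 55846 to 65600 after 5 h of DRB, and 1028086 to 1678770 in untreated cells. The 9 genes together contributed 0.290% and 0.308% of the gene-body tags after 1 h of DRB and 1.15% and 1.47% after 5 h, against 0.0673% and 0.0660% in untreated libraries. Levels are given in normalised tags, meaning tags scaled to 10M per library and then by the spike-in. The spike-in relates each library to the untreated one that carries its number. The 2 untreated libraries were each given a factor of 1, as their spike-in relation to each other is not known. Orders and overlaps of levels across library numbers rest on that setting, whereas percentages of untreated do not. In bulk RNA, fewer cells of a kind and less RNA per cell cannot be told apart. Tags were counted without regard to strand, so RNA of an overlapping or antisense gene cannot be told apart from that of the named gene.

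Among 4621 rows with at least 20 tags over both untreated libraries, the median level was 27.3% of untreated after 1 h of DRB and 11.5% after 5 h. Against that background, 5 of the 9 genes stood above untreated in both libraries at 1 h and 9 of 9 at 5 h. The same held for 2.68% of all rows at 1 h (124 rows) and 2.94% at 5 h (136 rows). Since the 9 were chosen on this contrast, nothing is read from the difference. Only 38 of the 4621 rows were above untreated in both libraries at both times, and 67 were below at 1 h and above at 5 h. The row just above the untreated level was RP11-196H14.4 at 1 h (100.08%) and ARL9 at 5 h (100.3%), and the rows just below were CNBD2 (99.7%) and SH3RF2 (99.9%).

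**Figure D1:**
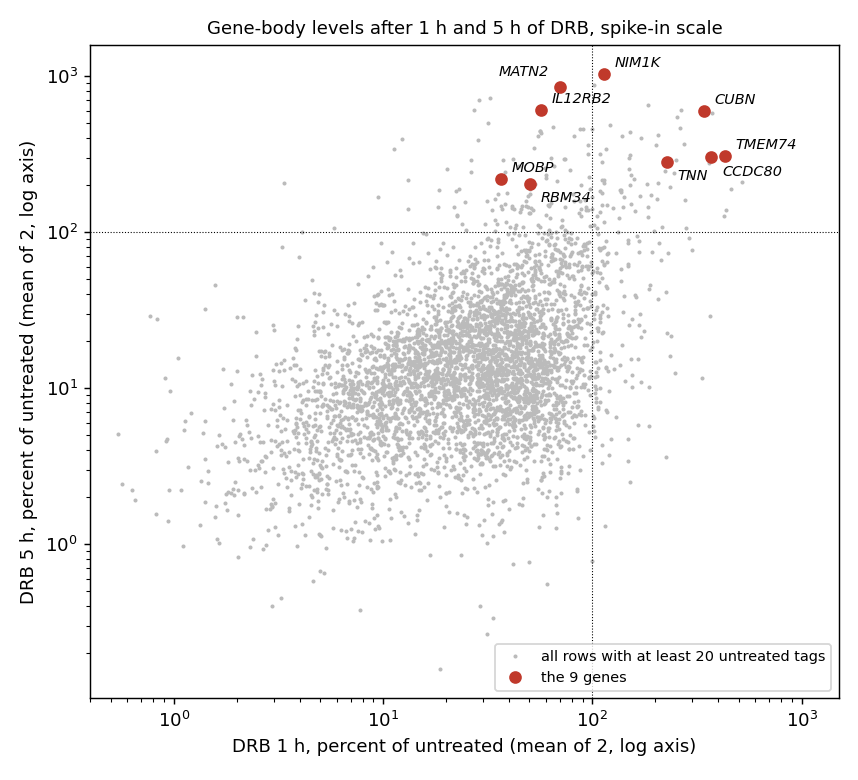
Mean level after 1 h of DRB (horizontal) and after 5 h (vertical) as a percentage of untreated on the spike-in scale, both on log axes, for 4236 rows with at least 20 untreated tags (385 further rows at 0 at either time are not drawn). The 9 genes, in red, lie above the 100% line at 5 h, and CUBN, TNN, CCDC80 and TMEM74 lie above 200% at 1 h as well, while most rows lie below 100% at both times.

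The 9 genes followed different courses. CCDC80, TMEM74, TNN and CUBN were already high after 1 h of DRB. CCDC80, the matrix protein gene with the highest count of tags in this subgroup at 1 h, had 68.5 and 73.6 normalised tags after 1 h of DRB and 50.9 and 66.1 after 5 h, against 16.5 and 22.6 in untreated cells. All 4 DRB libraries lay above both untreated ones, and the level was 371% ± 63.2 of untreated at 1 h and 301% ± 11.3 at 5 h (SD, n = 2 each). These values rest on 172 and 238 tags at 1 h, 85 and 87 at 5 h, and 76 and 152 in untreated cells.

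TMEM74 had 35.4 and 45.4 normalised tags after 1 h of DRB and 18.6 and 37.97 after 5 h, against 11.1 and 8.47 in untreated cells. Its level was 428% ± 152.9 of untreated at 1 h and 308% ± 198.3 at 5 h (SD, n = 2 each), so the libraries at the later time spread widely although both were above untreated. Its counted region is 4.08 kb long and covers 2.25% of the RefSeq gene, at the 5′ end, whereas the regions of the other 8 genes cover 78.2% to 100% of theirs.

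TNN, the tenascin gene, had 32.6 and 67.7 normalised tags after 1 h of DRB and 48.5 and 77.1 after 5 h, against 23.9 and 21.4 in untreated cells. The DRB libraries were all above the untreated ones, with 227% ± 127.04 of untreated at 1 h and 282% ± 111.1 at 5 h (SD, n = 2 each). The ranges of the 1 h and 5 h libraries overlapped.

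CUBN had 14.1 and 29.1 normalised tags after 1 h of DRB and 22.2 and 55.4 after 5 h, against 4.12 and 8.54 in untreated cells. In each of these groups the library numbered 2 held more than the one numbered 1, and the ratio within each number spread less than the level: 342% ± 1.95 of untreated at 1 h and 593% ± 78.8 at 5 h (SD, n = 2 each). Its untreated level rests on 19 and 57.5 tags.

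NIM1K, MATN2, IL12RB2, MOBP and RBM34 were near or below the untreated level at 1 h and above it at 5 h. NIM1K, the kinase gene, had the highest 5 h ratio of the 4621 rows. It had 5.37 and 7.57 normalised tags after 1 h of DRB and 57.5 and 56.6 after 5 h, against 4.99 and 6.31 in untreated cells. The 5 h libraries stood apart from all others, at 1024% ± 180.4 of untreated, whereas at 1 h the value was 114% ± 8.73 (SD, n = 2 each) and the levels overlapped with untreated cells.

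MATN2, the matrilin gene, had rank 3 of the 4621 rows at 5 h. Its level was 6.17 and 6.65 normalised tags after 1 h of DRB and 75.7 and 80.1 after 5 h, against 10.5 and 8.24 in untreated cells. It thus lay below untreated in both libraries at 1 h (69.7% ± 15.6) and far above in both at 5 h (846% ± 178.5, SD, n = 2 each), with 15.5 and 21.5 tags behind the 1 h values and 126.5 and 105.5 behind the 5 h values.

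IL12RB2 showed the same course. It had 6.37 and 5.56 normalised tags after 1 h of DRB and 64.95 and 61.1 after 5 h, against 10.6 and 10.3 in untreated cells. The libraries of each group lay close together and no 2 of the 3 groups overlapped. The level was 56.9% ± 4.26 of untreated at 1 h and 602% ± 13.2 at 5 h (SD, n = 2 each). The 1 h values rest on only 16 and 18 tags, so their closeness and their distance from untreated are less firm.

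MOBP, the myelin gene, had 5.57 and 3.56 normalised tags after 1 h of DRB and 25.1 and 33.4 after 5 h, against 10.9 and 16.3 in untreated cells. Its level was 36.6% ± 20.9 of untreated at 1 h, the lowest of the 9 genes and close to the 27.3% of the median row. It was 218% ± 19.3 at 5 h (SD, n = 2 each). Only 14 and 11.5 tags stand behind the 1 h values of MOBP. RBM34, the best covered of the 9 with 265.5 and 420.5 untreated tags, had 23.7 and 37.4 normalised tags after 1 h of DRB and 88.6 and 157.6 after 5 h, against 57.6 and 62.5 in untreated cells. It lay below untreated in both libraries at 1 h (50.5% ± 13.3) and above in both at 5 h (203% ± 69.6, SD, n = 2 each).

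Unlabelled background lay below the untreated level for all 9. On average, cells given no 4-SU held 0.618% (TMEM74) to 7.98% (CUBN) of the untreated level. The median of the 9 genes was 3.21%, above the 1.52% of the median row. In replicate 2 the background reached 11.9% for CUBN and 11.1% for MATN2. The lower DRB 5 h library exceeded the higher of the libraries given no 4-SU by 21.8-fold for CUBN, the smallest such gap, and by 192-fold for TMEM74, the largest.

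**Figure D2:**
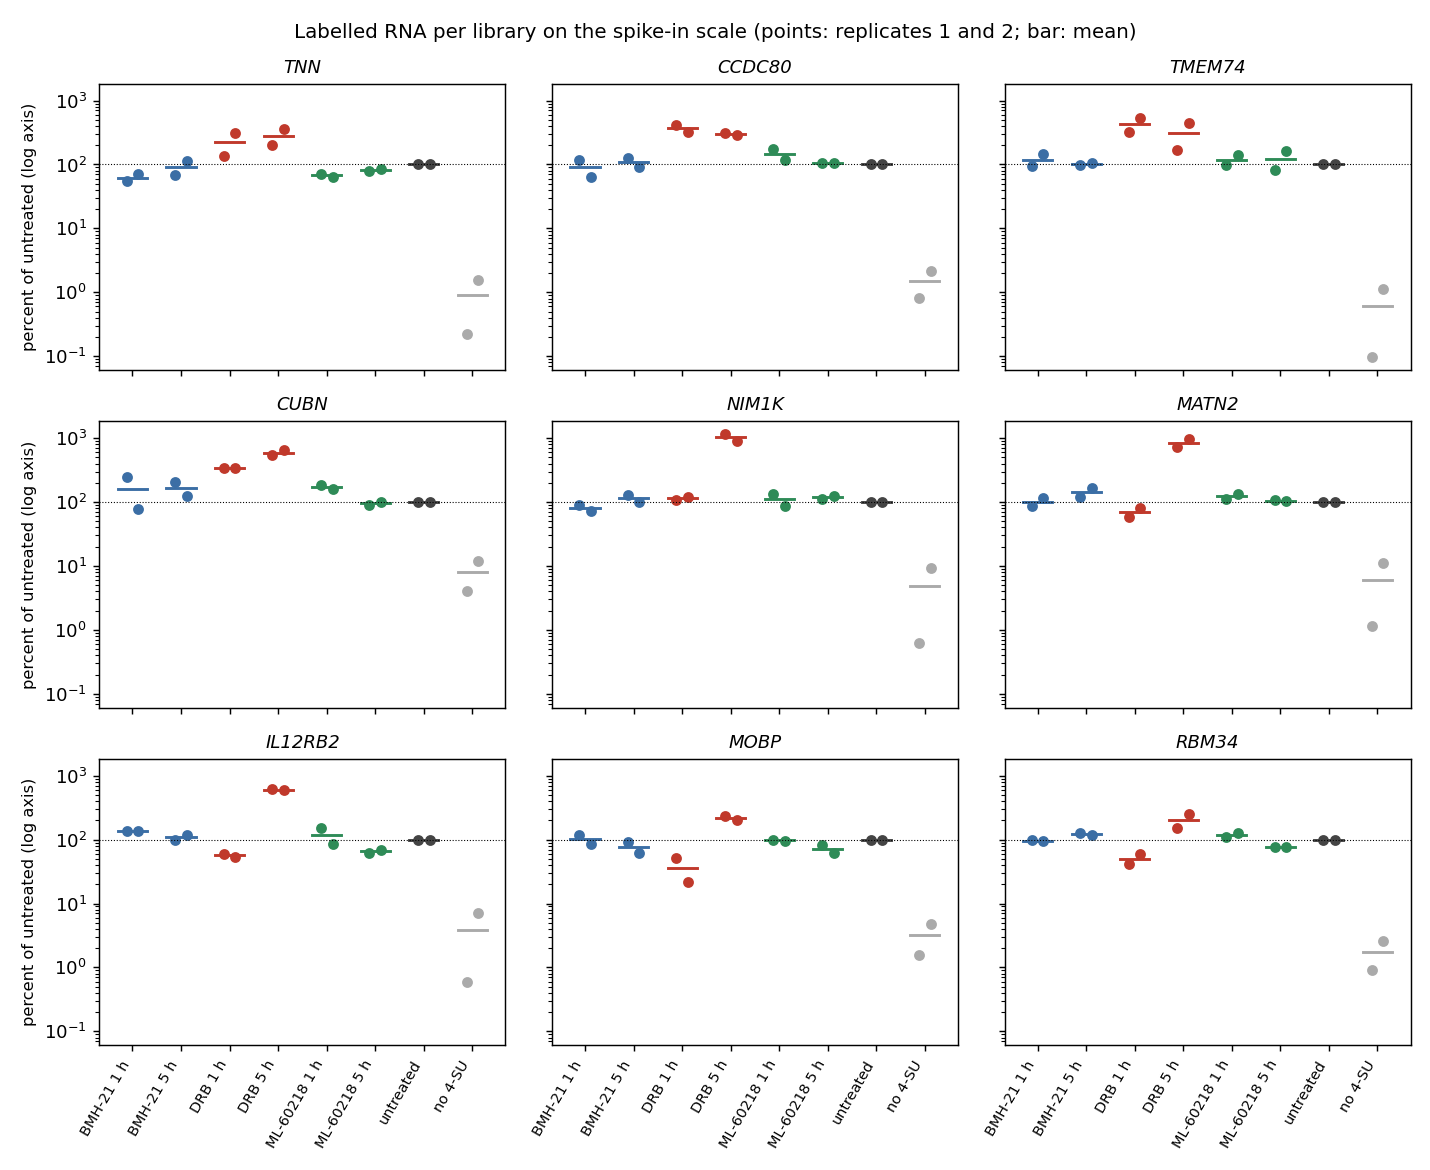
Level of each gene in each of the 16 libraries as a percentage of the like-numbered untreated library, on a log axis. Points are replicates 1 and 2, bars their mean, and the dotted line marks 100%, at which untreated libraries lie by construction. TNN, CCDC80, TMEM74 and CUBN are above the line in all 4 DRB libraries, MATN2, IL12RB2, MOBP and RBM34 lie below it at 1 h and above it at 5 h, and the libraries given no 4-SU lie far below.

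In the order of group means a DRB group came first for each gene, which restates how the genes were chosen. After DRB 5 h, the next group was ML-60218 5 h for NIM1K, BMH-21 5 h for MATN2 and RBM34, BMH-21 1 h for IL12RB2 and untreated cells for MOBP. For CCDC80 and TMEM74 DRB 1 h came first and DRB 5 h next, and for TNN and CUBN the reverse. The DRB times overlapped with each other for TMEM74, TNN and CUBN and not for CCDC80. The no 4-SU group was last for all 9 and overlapped with none. Rows at large were also low without 4-SU, with the median row at 1.52% of untreated. None of the 4621 rows was above untreated in both of these libraries. How many rows share this order was not counted, so nothing particular to the 9 is read from it. Some groups in between were also apart from the next, among them BMH-21 1 h from DRB 1 h for MATN2, and ML-60218 5 h from DRB 1 h for IL12RB2, MOBP and RBM34.

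Per kilobase of counted region, the genes differed widely in level. In untreated cells the spike-in scaled level ran from 0.0207 normalised tags per kb for CUBN to 2.39 for TMEM74 and 1.98 for RBM34. After 5 h of DRB it ran from 0.127 for CUBN to 6.93 for TMEM74 and 4.07 for RBM34. The regions were long: their median span was 80.2 kb (4.08 kb for TMEM74 to 305.9 kb for CUBN), against 26.4 kb for the rows with at least 20 untreated tags and 17.1 kb for all rows.

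In the hg38 coordinates of the deposited table, NIM1K lies at chr5:43192225-43280850 on the plus strand, IL12RB2 at chr1:67307364-67396900 (plus), TNN at chr1:175067858-175148066 (plus) and MOBP at chr3:39467680-39516001 (plus). MATN2 lies at chr8:97869083-98036716 (plus) and TMEM74 at chr8:108783537-108787615 (minus). CCDC80 lies at chr3:112596794-112641269 (minus), CUBN at chr10:16823964-17129831 (minus) and RBM34 at chr1:235131183-235161457 (minus). Each region is a stretch of gene body, exons and introns together.

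A protein-coding gene converges on the 3′ end of some regions within 25 kb: HMGCS1, a cholesterol synthesis gene, 6.62 kb beyond NIM1K, SERBP1 10.9 kb beyond IL12RB2, SLC35A5 11.2 kb beyond CCDC80, and KIAA0040 8.92 kb beyond TNN. With chromosome 8 left out, these are 4 of 7 of the genes (57.1%), against 34.4% of 128 rows above untreated in both DRB 5 h libraries, 30.8% of 117 such rows at 1 h and 24.6% of 4429 rows with at least 20 untreated tags. As 7 of 9 is under 80%, this is no check of the set. Upstream genes on the same strand end 15.9 kb before NIM1K (ZNF131), 16.1 kb before MATN2 (LAPTM4B), 7.51 kb before CUBN (TRDMT1) and 5.45 kb before RBM34 (ARID4B). With chromosome 8 left out, 3 of 7 genes (42.9%) have such a gene within 25 kb, again no check of the set. The share was 30.5% of rows above untreated in both DRB 5 h libraries and 23.9% at 1 h. Among rows with at least 20 untreated tags it was 24.1%. RPL30 lies 5.01 kb beyond MATN2, RSU1 6.54 kb beyond CUBN and TOMM20 2.35 kb beyond RBM34. The lncRNA gene LOC105376435 lies nearer to CUBN, 2.71 kb beyond it, and points back at its 3′ end. The nearest protein-coding genes to the counted TMEM74 region are EMC2 at 294.3 kb and TRHR at 298.97 kb, and the lncRNA gene LOC102723368 lies 12.5 kb downstream of that region. The nearest protein-coding gene to MOBP is RPSA at 55.1 kb, and the lncRNA gene LOC107986075 lies 42.8 kb upstream of the MOBP region.

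Inside the NIM1K region RefSeq places the pseudogenes LOC100419037 and TUBAP14, and inside that of MATN2 the lncRNA gene LOC124901987. No tRNA gene of the deposited table lies within 100 kb of any of the 9. Repeats were not analysed here.

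Neighbours with a row of their own mostly stood below untreated under DRB. ZNF131 held 22.8% of untreated at 1 h and 10.2% at 5 h, on 1419.5 untreated tags. LAPTM4B held 36.3% and 13.01%, KIAA0040 48.1% and 12.04%, TRDMT1 42.9% and 5.71%, and SLC25A38, 70.3 kb from MOBP, 8.18% and 7.98%. ERICH5, 27.6 kb from MATN2, held 24.7% and 24.9%, and BTLA, 97.2 kb from CCDC80, 44.5% and 19.1%. CCL28, a chemokine gene 98.3 kb from NIM1K, held 55.1% at 1 h and 415% at 5 h, but on 17 untreated tags, under the minimum of 20 used for the other rows. LINC01348 near RBM34 and RP11-572C15.5 near CCDC80 had 2 and 4.5 untreated tags and give no usable ratio. HMGCS1, SERBP1, SLC35A5, RPL30, RSU1, ARID4B and TOMM20 have no row of their own among the counted gene bodies, so their levels are not known here. Any part of such neighbours in the DRB values was not tested.

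**Figure D3:**
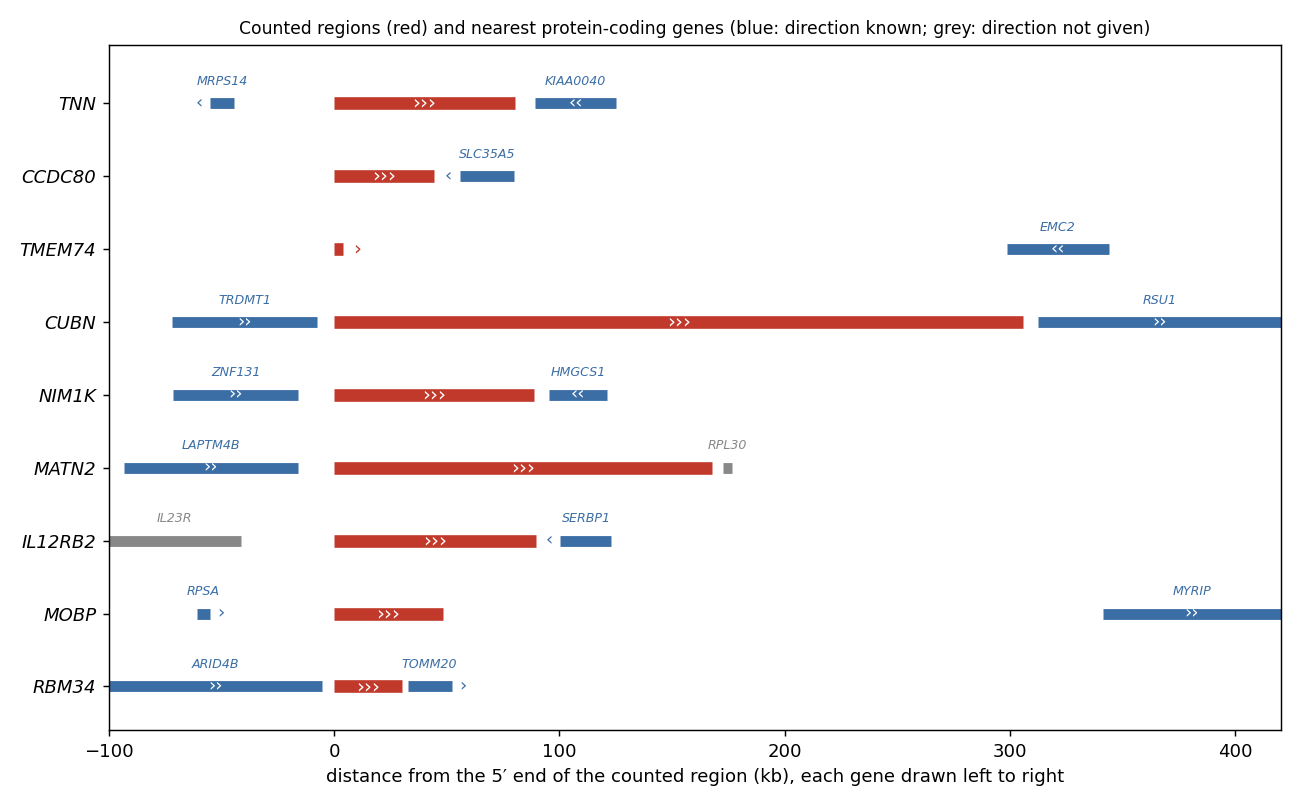
Counted regions of the 9 genes (red) and their nearest protein-coding genes (blue, or grey where the direction is not given), drawn to scale in kb from the 5′ end of each region with transcription of the named gene from left to right; chevrons show direction. HMGCS1, SERBP1, SLC35A5 and KIAA0040 point back at the 3′ ends of NIM1K, IL12RB2, CCDC80 and TNN at 6.62 to 11.2 kb.

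RefSeq (GRCh38.p14) gives the 250 bases before the RefSeq start of 7 of the 9 genes. MATN2 and TMEM74 have no entry. The windows are shown so that the starts of genes high at both DRB times and at 5 h only can be set side by side. The counted regions of CCDC80, CUBN and RBM34 reach past that start, to positions 112641269, 17129831 and 235161457. Part of each of their windows therefore lies inside the counted region. Capitals mark each CG dinucleotide, which reads the same on both strands. CCDC80 (chr3:112641144-112641393, minus strand), TNN (chr1:175067583-175067832, plus) and CUBN (chr10:17129812-17130061, minus) were high at both times, and NIM1K (chr5:43191975-43192224, plus) and RBM34 (chr1:235161251-235161500, minus) stood above 200% of untreated at 5 h only.
CCDC80: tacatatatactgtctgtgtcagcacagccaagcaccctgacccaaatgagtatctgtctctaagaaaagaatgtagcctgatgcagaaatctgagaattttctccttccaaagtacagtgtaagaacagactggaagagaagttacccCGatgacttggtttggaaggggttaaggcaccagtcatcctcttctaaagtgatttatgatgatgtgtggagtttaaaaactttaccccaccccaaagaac
TNN: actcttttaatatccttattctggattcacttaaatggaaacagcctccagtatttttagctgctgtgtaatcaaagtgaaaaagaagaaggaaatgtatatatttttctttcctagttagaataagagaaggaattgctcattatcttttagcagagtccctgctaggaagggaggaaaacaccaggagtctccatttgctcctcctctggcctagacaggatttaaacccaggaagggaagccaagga
CUBN: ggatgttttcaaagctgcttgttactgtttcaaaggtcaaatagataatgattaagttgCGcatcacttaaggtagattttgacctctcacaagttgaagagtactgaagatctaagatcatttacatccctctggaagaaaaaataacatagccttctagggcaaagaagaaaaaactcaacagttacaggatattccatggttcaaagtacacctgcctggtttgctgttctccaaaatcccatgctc
NIM1K: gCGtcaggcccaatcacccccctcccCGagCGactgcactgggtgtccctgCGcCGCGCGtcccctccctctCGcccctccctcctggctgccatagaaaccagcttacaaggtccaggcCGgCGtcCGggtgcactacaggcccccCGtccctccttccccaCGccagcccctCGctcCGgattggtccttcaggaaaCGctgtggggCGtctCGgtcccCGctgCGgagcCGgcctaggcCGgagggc
RBM34: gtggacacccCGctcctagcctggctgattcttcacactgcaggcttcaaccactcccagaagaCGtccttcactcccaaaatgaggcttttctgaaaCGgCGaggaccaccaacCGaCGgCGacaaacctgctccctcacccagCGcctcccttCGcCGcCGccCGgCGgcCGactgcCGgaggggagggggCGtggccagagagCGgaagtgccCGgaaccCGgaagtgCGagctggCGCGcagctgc

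CCDC80, TNN and CUBN hold 1, 0 and 1 CG in these windows, with 42.0%, 39.2% and 38% G or C. NIM1K and RBM34 hold 22 each, with 71.6% and 66.4% G or C. MOBP, high at 5 h only, holds 2 (35.6%), and IL12RB2 holds 9 (51.6%), so the split by time is not clean. Of the rows with at least 20 untreated tags, 2625 of 4621 had an entry, with a median of 20 CG, and 5.37% of these had 2 or fewer. Among rows above untreated in both DRB libraries the share was 23.4% at 1 h (47 with an entry, median 10 CG) and 24.2% at 5 h (66 with an entry, median 9.5 CG). Since fewer than 80% of the 9 genes and of all rows have a sequence, a check of composition over the set is void, and the windows serve as a description of these genes.

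BMH-21 and ML-60218 served as a comparison with libraries that the choice of genes did not use, although the contrasts with untreated cells share the untreated libraries with the DRB values. On the spike-in scale, 1 of the 9 genes was above untreated in both BMH-21 1 h libraries (14.2% of all rows were) and 4 of 9 in both BMH-21 5 h libraries (66.5%). With ML-60218 the counts were 4 of 9 at 1 h (31.5%) and 3 of 9 at 5 h (27.2%). Counts of this size out of 9 are no result about these genes beside such shares. Mean levels ran from 62.1% (TNN) to 160.8% (CUBN) of untreated after BMH-21 for 1 h and from 76.6% (MOBP) to 165.5% (CUBN) after 5 h. After ML-60218 they ran from 68.0% (TNN) to 171.7% (CUBN) at 1 h and from 65.3% (IL12RB2) to 121% (TMEM74) at 5 h.

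The test was limma on log2 values relative to typical mRNA, over 5532 rows and 14 labelled libraries, with p-values adjusted over all rows by Benjamini-Hochberg and a threshold of 0.05. All 9 genes passed the filter on low values. None of the 9 was called in any of the 6 comparisons. Among all rows limma called 0% in each contrast with untreated cells and in BMH-21 5 h against 1 h, and 0.163% (9 rows) in ML-60218 5 h against 1 h. At an unadjusted p under 0.05 it had 142 to 752 rows per comparison.

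The quasi-likelihood test of edgeR, run on recovered tags, called more rows, with 7.95% in BMH-21 1 h and 3.34% in BMH-21 5 h against untreated. It called 0.0542% in ML-60218 1 h and 6.47% in ML-60218 5 h against untreated. None of the 9 genes passed in these 4 comparisons. In BMH-21 5 h against 1 h it called 18.3% of rows, 7.86% as lower, and among these were 2 of the 9 genes, MOBP and IL12RB2. In ML-60218 5 h against 1 h it called 12% of rows and none of the 9.

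MOBP had 9.82 and 10.3 normalised tags after BMH-21 for 5 h, against 12.6 and 13.9 after BMH-21 for 1 h, and the groups did not overlap. Relative to typical mRNA the log2 change was -0.81 (limma, SE 0.32, adjusted p = 0.431; edgeR -0.85, adjusted p = 0.00379, n = 2 per group). IL12RB2 had 10.4 and 12.2 normalised tags after BMH-21 for 5 h, against 14.5 and 14.1 after BMH-21 for 1 h, again without overlap. Its log2 change was -0.75 (limma, SE 0.33, adjusted p = 0.544; edgeR -0.81, adjusted p = 0.00549, n = 2 per group). TMEM74 missed the threshold in edgeR, with -0.60 and an adjusted p of 0.0504 (limma adjusted p = 0.653, n = 2 per group). On the scale relative to typical mRNA the median row changed by 0.00 in this comparison, but on the spike-in scale the median row was 0.39 higher at 5 h. On that scale limma gave -0.39 for MOBP (adjusted p = 0.509), -0.33 for IL12RB2 (adjusted p = 0.554) and -0.18 for TMEM74 (adjusted p = 0.793).

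None of the other changes passed in either tool. Against untreated cells the 9 log2 changes ran from -0.48 (TNN) to 0.63 (IL12RB2) after BMH-21 for 1 h, and from -0.61 (MOBP) to 0.41 (CUBN) after BMH-21 for 5 h. IL12RB2 had an edgeR log2 change of 0.70 with an adjusted p of 0.0512 after BMH-21 for 1 h. After ML-60218 they ran from -0.59 (TNN) to 0.68 (CUBN) at 1 h and from -0.49 (IL12RB2) to 0.32 (NIM1K) at 5 h. Between the ML-60218 times they ran from -0.66 (CUBN) to 0.40 (TNN), and RBM34 had -0.49 with a 95% interval of -0.97 to -0.01 before adjustment (limma adjusted p = 0.352, edgeR adjusted p = 0.0916). Intervals for CUBN, the gene with the widest, spanned 2.20 log2 units, so a change of 2-fold in either direction could not be told from none.

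**Figure D4:**
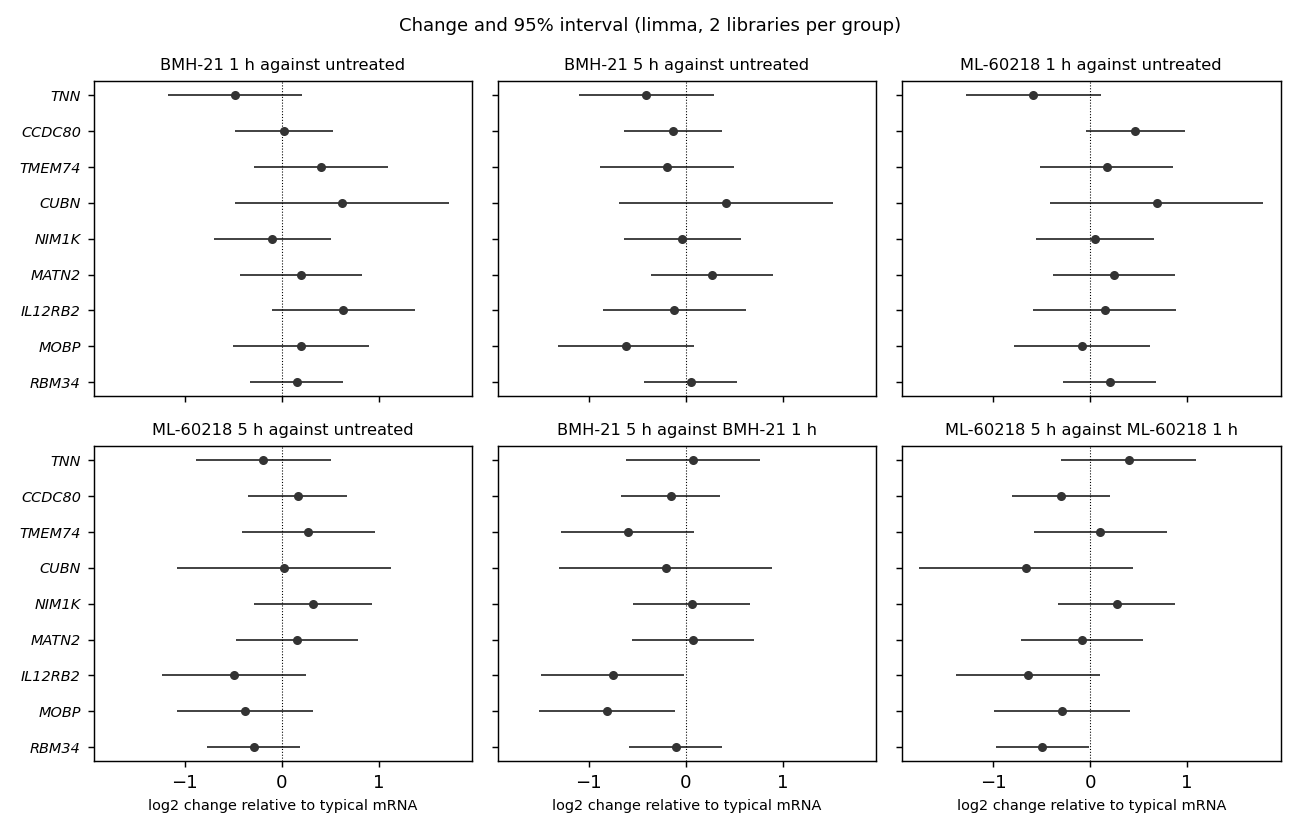
Log2 change of each gene in the 6 comparisons, relative to typical mRNA, with the 95% interval from limma (2 libraries per group, points are estimates). All but 3 intervals include 0: those of MOBP and IL12RB2 in BMH-21 5 h against 1 h and that of RBM34 in ML-60218 5 h against 1 h lie below it, before adjustment over all rows.

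Related genes were taken from lists. Of 42 family members and partners of the 9 proteins (matrilins, tenascins, interleukin-12 receptor and its JAK kinases, cubilin's partners, myelin proteins, and kinases related to NIM1K), 12 have a row and 9 have at least 20 untreated tags. Their median level was 50.6% of untreated after 1 h of DRB, against 27.3% for all rows, and 13.7% after 5 h, against 11.5% for all rows. Of these 9 rows, 1 was above untreated in both libraries at 5 h, against 2.94% of all rows. It was LRP2, which encodes megalin, the receptor that works with cubilin in the kidney. LRP2 held 91.7% and 54.1% of untreated after 1 h of DRB and 414% and 178% after 5 h, on 21.5 untreated tags. The AMPK-related kinase genes MARK3, at 15.6% and 11.8% after 5 h, and BRSK2, at 34.2% and 13.6%, stayed low where NIM1K was high. MARK4, another kinase of this family, was less low at 5 h, at 49.5% and 33.7%. JAK2, 1 of the listed kinases that signal for the interleukin-12 receptor, held 12.7% and 6.21%. Over the 9 rows, mean levels at 5 h ran from 1.89% to 296% (LRP2).

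Across BMH-21 and ML-60218 limma called none of the 9 partner rows it tested. edgeR called MARK4 lower after BMH-21 for 1 h (-0.73, adjusted p = 0.00444) and higher at 5 h than at 1 h (0.70, adjusted p = 0.00147). It called BRSK2 lower after BMH-21 for 1 h (-0.87, adjusted p = 0.0148) and higher at 5 h than at 1 h of ML-60218 (0.81, adjusted p = 0.0253, n = 2 per group throughout). Of 29 genes of Pol II elongation, on which DRB acts, 7 have a row. Their median was 32.5% of untreated after 1 h and 17.6% after 5 h of DRB. None was above untreated in both libraries at either time, but only 2.68% (1 h) and 2.94% (5 h) of all rows were. Neither tool called any with the other inhibitors. Beside such low shares, none out of 7 is no result about these genes.

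The marker genes described here, of the cell types in which the 9 are best known and of others, were not above untreated in both libraries at either DRB time, apart from LRP2 at 5 h. Only 2.68% of all rows at 1 h and 2.94% at 5 h were above untreated in both libraries. Of 5 myelin markers, 2 have a row. Of 5 T and NK cell markers, 3 have a row, with CD8A highest at 91.5 untreated tags and 9.96% and 28.6% of untreated after 1 h, and 7.50% and 9.37% after 5 h of DRB. Of 4 kidney tubule markers, 2 have a row, with LRP2 the higher. Of 5 fibroblast markers, 4 have a row, with COL1A1 highest at 90.5 untreated tags and 39.5% and 32.7% after 5 h of DRB. Of 10 blood lineage markers, 5 have a row and 1 of these has no untreated tag. KIT was highest, with 125 untreated tags and 4.96% and 22.2% of untreated after 5 h of DRB. edgeR called KIT higher after ML-60218 for 5 h (0.83, adjusted p = 0.0418) and COL1A1 higher at 5 h than at 1 h of BMH-21 (0.80, adjusted p = 0.0251), and limma called no marker.

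Over the 14 labelled libraries, the rows most like the mean of the 9 on the centred log2 spike-in scale were SHISA7 (Pearson r = 0.962), CAMK2B (0.956), BANF2 (0.952), TMEM40 (0.946) and TGM6 (0.941), of 5747 rows with at least 50 tags over all libraries. These 5 had 3, 69, 5.5, 9.5 and 4 untreated tags, and their mean levels after 5 h of DRB ran from 456% (CAMK2B) to 4639% (TGM6) of untreated. The points share the 4 DRB libraries of low depth, and the values are a description. Each of the 9 genes correlated with the mean of the others between 0.50 (TMEM74) and 0.95 (NIM1K). These values rest in part on the DRB libraries by which the genes were chosen, and the 5 rows were picked for the highest r.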

How the data were processed

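TT-chem-seq of HAP1 cells was analysed in 16 libraries, 8 groups of 2. The submitters' processing notes name STAR 2.7.7a, Trim Galore 0.6.5, FastQC 0.11.9 and HOMER, with GRCh38. Per the file headers, the authors ran HOMER on hg38 over gene-body regions and set no strand option. The deposited signal columns, though headed as raw counts, hold tags scaled to 10M per library. The deposited ratio columns divide each spike-in scaled value by that of the like-numbered untreated library. The 45S rRNA table carries the same signal unit (tags per 10M), per the file headers.

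Multiplied back by the library total, 138454 of 138454 values under 200 tags fell on steps of 0.5 tag (tolerance 0.005 in the deposited unit), so tags were recovered for filters and count tests. Because the values were scaled, limma took the place of the count test named for raw counts. It was run on log2(value + 0.5), each value divided by the gene-body sum times a TMM factor, after filterByExpr (minimum 10 tags). Folds understate changes of rows with few tags. Spike-in factors came from the ratio columns. On simulated tags, signs were checked against known changes. Replicates of no group held identical values. Tests used DESeq2 1.42.0, edgeR 4.0.16 and limma 3.58.1 in R 4.3.3, and other steps Python 3.11.15.

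The 9 genes and all lists were chosen with earlier results of these data known. Other genes named are annotated neighbours within 100 kb or nearest, rows at the untreated level, the 5 rows most alike over 14 libraries, and list members. Values of 1 list member are not reported here. Alternatives covered scale, tool, filter, pseudocount, replicate block and left-out libraries.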

Additional observations from a re-analysis of the deposited data

Results flagged for a closer look

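For some genes both libraries of one time lay above untreated and both of the other time below it. After DRB the mean level at 5 h exceeded that at 1 h by 776.3 percentage points for MATN2 (846% at 5 h, 69.7% at 1 h), 544.8 for IL12RB2, 181.5 for MOBP and 152.5 for RBM34. After BMH-21 the difference was 34.5 points for NIM1K (115.4% at 5 h, 80.9% at 1 h) and 25.5 for RBM34 (122% at 5 h, 96.4% at 1 h). After ML-60218 it was -76.5 points for CUBN (95.2% at 5 h, 171.7% at 1 h) and -42.8 for RBM34 (76.3% at 5 h, 119.1% at 1 h). The DRB differences were not tested, since the genes were chosen on that contrast. The BMH-21 and ML-60218 differences were not tested on this scale. Relative to typical mRNA, limma and edgeR called none of these 4 between the times, with edgeR adjusted p of 0.948 and 0.676 for NIM1K and RBM34 with BMH-21 and 0.356 and 0.0916 for CUBN and RBM34 with ML-60218.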

How the results depend on the processing

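The 9 genes above untreated after 5 h of DRB remained 9 under every scale tried and without either replicate. The genes were chosen on this contrast, so these counts are a description. At both times the 2 libraries of each gene lay on the same side of untreated. Neither leaving out a replicate nor taking group means could therefore change the counts. The scale relative to typical mRNA raises every DRB ratio, as the median row held 27.3% (1 h) and 11.5% (5 h) of untreated. At 1 h the 5 genes above untreated became 9 relative to typical mRNA, where their levels ran from 113% to 1278% of untreated (1140% to 5719% at 5 h), and stayed 5 relative to 45S rRNA or tRNA, by group means, without either replicate, and with the no 4-SU background subtracted, an alternative chosen after seeing the data.

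Counts of rows called moved with the tool and with the libraries in the fit. In the order BMH-21 1 h, BMH-21 5 h, ML-60218 1 h and ML-60218 5 h against untreated, then BMH-21 and ML-60218 5 h against 1 h, limma's 0, 0, 0, 0, 0 and 9 became 440, 185, 3, 358, 1015 and 664 with edgeR and 475, 224, 9, 473, 987 and 749 with DESeq2. They became 402, 276, 1, 768, 1101 and 746 when only the 4 libraries compared entered limma. The spike-in scale gave 2 in ML-60218 5 h against untreated, 84 in BMH-21 5 h against 1 h and 46 in ML-60218 5 h against 1 h. A pseudocount of 2 gave 1 in ML-60218 1 h against untreated and 9 in BMH-21 5 h against 1 h. Without the filter limma called 1 in BMH-21 5 h against 1 h and 0 in ML-60218 5 h against 1 h. With the replicate block all counts were 0, as they were without any 1 library (range 0 to 0), against 9 for ML-60218 5 h against 1 h in the full fit. The cause was not tested. Replicate numbers were not taken as pairs: deviations of same-numbered libraries correlated above 0.1 in 3 of the 6 pairs of groups compared (0.03 to 0.16), and between -0.03 and 0.25 over all 21 pairs of labelled groups.

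Of 648 log2 changes of the 9 genes under alternatives, 637 were called by neither fit, 43 of them with the sign changed. The other 11 were called by the alternative: DESeq2 called IL12RB2 higher after BMH-21 for 1 h (0.71), MOBP lower after BMH-21 for 5 h (-0.71), and TMEM74, MOBP and IL12RB2 lower at 5 h than at 1 h of BMH-21. Limma on only 4 libraries called the same 3 genes there and RBM34 lower at 5 h than at 1 h of ML-60218 (-0.52). edgeR's calls stand in the report. With 13.5 to 24.5 tags behind NIM1K at 1 h of DRB, small differences there were not detectable.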
